A study of Mus musculus with 8 samples.

Results

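Lck and Tcrg-C2 are genes of the T-cell receptor system that were read in FT1CL, a line of mouse acute myeloid leukemia cells, and both were read far less after loss of Cop1. They were taken as every row of a splice-junction table whose Ensembl gene identifier maps to either symbol. These are 2 of 13378 genes and 15 of 134051 junctions, 13 in Lck and 2 in Tcrg-C2. Both genes were picked for their difference between knockout and wild type, so that difference is described here with no test.

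FT1CL came from bone marrow of a mouse aged 8 weeks, taken 5 days after 150 mg/kg 5-fluorouracil and transduced with the retroviral vector pMYs carrying Trib1. The mouse carried a conditional Cop1 allele and Rosa26-Cre-ERT2, a recombinase that 4-hydroxytamoxifen activates. The 4 knockout libraries are from Cop1 ko/ko cells given 4-hydroxytamoxifen, and the 4 wild-type libraries are from Cop1 +/+ cells left untreated, so genotype and drug cannot be told apart. The Trib1 retrovirus and growth in 10% serum with 5 ng/mL IL-3 are common to both groups, and both come from this single line. Whether each library had its own culture is not given in the labels, so p-values reflect only how these libraries spread, which may be technical.

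Lck is a kinase of the Src family that sits under the membrane of T cells, bound to the tails of the coreceptors CD4 and CD8. It phosphorylates the signalling motifs of the CD3 chains when the receptor is engaged, which recruits the kinase ZAP-70. Csk holds Lck in check by phosphorylating its tail, and the phosphatase CD45 (Ptprc) removes that mark. The mouse Lck gene has a distal promoter and a proximal promoter, the proximal one known for use in immature thymocytes. Tcrg-C2 encodes a constant region of the T-cell receptor gamma chain, which pairs with a delta chain on gamma-delta T cells. In mice the gamma locus repeats its constant gene as Tcrg-C1, Tcrg-C2, Tcrg-C3 and Tcrg-C4, and in lymphoid precursors IL-7 acting through STAT5 opens that locus.

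The libraries held 17333302 to 22469109 junction reads, and 11216 to 11610 genes had at least 10 reads. Levels are given as junction reads per 1000000 (RPM), summed over a gene's junctions. Cop1, the ubiquitin ligase gene that was deleted, averaged 73.7 ± 6.47 RPM in knockout and 162 ± 2.92 RPM in wild type (SD, n = 4 each; log2 difference -1.13, SE 0.08, limma adjusted p = 4.91e-04), so the labels and the deleted gene go the same way while reads over the gene remained. Both libraries numbered 4 stand apart from the rest of their group. The summed neutrophil markers show it, at 318 RPM in knockout library 4 and 3965 to 9624 RPM in the other knockout libraries. In wild type they were at 9.55 RPM in library 4 and 27.55 to 36.8 RPM in the others. Members are therefore given with and without both libraries numbered 4.

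Lck lies on the minus strand of chromosome 4 at 129548344 to 129573641 in mm10 (ENSMUSG00000000409) and spans 25298 bp. Its first exons start 15269 bp apart, which matters because a change in total reads could rest on either start. The sequences before both starts are shown for that reason, from RefSeq on GRCm38.p6, 5′ to 3′ on the minus strand. Capitals mark the ETS motif AGGAAG and the RUNX motif TGTGGT on either strand.
distal, chr4:129573642-129573891: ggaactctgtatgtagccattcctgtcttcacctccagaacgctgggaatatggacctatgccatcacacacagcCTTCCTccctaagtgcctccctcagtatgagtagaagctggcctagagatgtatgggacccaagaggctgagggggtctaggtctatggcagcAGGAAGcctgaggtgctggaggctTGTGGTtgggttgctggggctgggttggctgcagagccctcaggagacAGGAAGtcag
proximal, chr4:129558373-129558622: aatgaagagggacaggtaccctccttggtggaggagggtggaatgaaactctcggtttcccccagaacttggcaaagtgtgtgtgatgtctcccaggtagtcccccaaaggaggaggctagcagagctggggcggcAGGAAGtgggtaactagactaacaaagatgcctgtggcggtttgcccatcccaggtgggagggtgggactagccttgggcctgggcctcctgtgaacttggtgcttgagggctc

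The distal stretch held 3 matches to the ETS motif, at 175, 82 and 10 bases before the start, and 1 match to the RUNX motif at 58 bases. The proximal stretch held 1 ETS match at 114 bases and no RUNX match. Over 32851 RefSeq promoter stretches of the same length, 29.5% held the ETS motif and 14% the RUNX motif. The STAT5 motif TTCNNNGAA and the C/EBP motif TTNNGNAA, sought on both strands, were in neither stretch, and were in 7.02% and 36.8% of all stretches. A match is a run of letters and no evidence of binding.

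Lck had 3.07, 0.87, 1.03 and 6.14 RPM in knockout libraries 1 to 4, against 32.5, 29.2, 11.8 and 23.1 RPM in wild-type libraries 1 to 4. Every knockout library was below every wild-type library. Knockout library 4 was the highest of its group, and wild-type library 3 the lowest of its own. The mean was 2.78 ± 2.46 RPM in knockout and 24.2 ± 9.14 RPM in wild type (SD, n = 4 each), which leaves 11.5% of the wild-type level. The difference of mean log2(RPM + 1) was -2.87. That scale understates the change of a gene with so few reads, and the value was -1.89 with 5 RPM added in place of 1. In these bulk libraries, fewer cells that express a gene and less RNA per cell cannot be told apart.

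Over all genes tested, a gene was called when its limma adjusted p was under 0.05, and 12.1% were called lower in knockout (1330 of 11003), 8.49% were called higher and 20.6% were called in all. With another scaling of the libraries (TMM) the calls were 8.83% lower and 9.92% higher, so higher calls were 52.9% of all calls there and 41.3% here. With the replicate number as a block, 28% of genes were called, 15.7% lower and 12.3% higher. Without both libraries numbered 4, 25.1% were called, 14.1% lower and 11% higher. Knockout lay below wild type in every library for 15.4% of genes and above it for 9.79%. Knockout below wild type in every library, with a mean under 30% of the wild-type mean as in both genes here, held for 81 genes, or 0.736%. Since both genes were chosen on this contrast, these shares serve as background and nothing is read from them about Lck or Tcrg-C2.

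Tcrg-C2 had 55.6, 76.7, 57.9 and 74.2 RPM in knockout libraries 1 to 4, against 305, 299, 234 and 330 RPM in wild-type libraries 1 to 4. The groups do not overlap.
Its mean was 66.1 ± 10.9 RPM in knockout and 292 ± 41.1 RPM in wild type (SD, n = 4 each), which leaves 22.6% of the wild-type level. The difference of mean log2(RPM + 1) was -2.13.

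**Figure D1:**
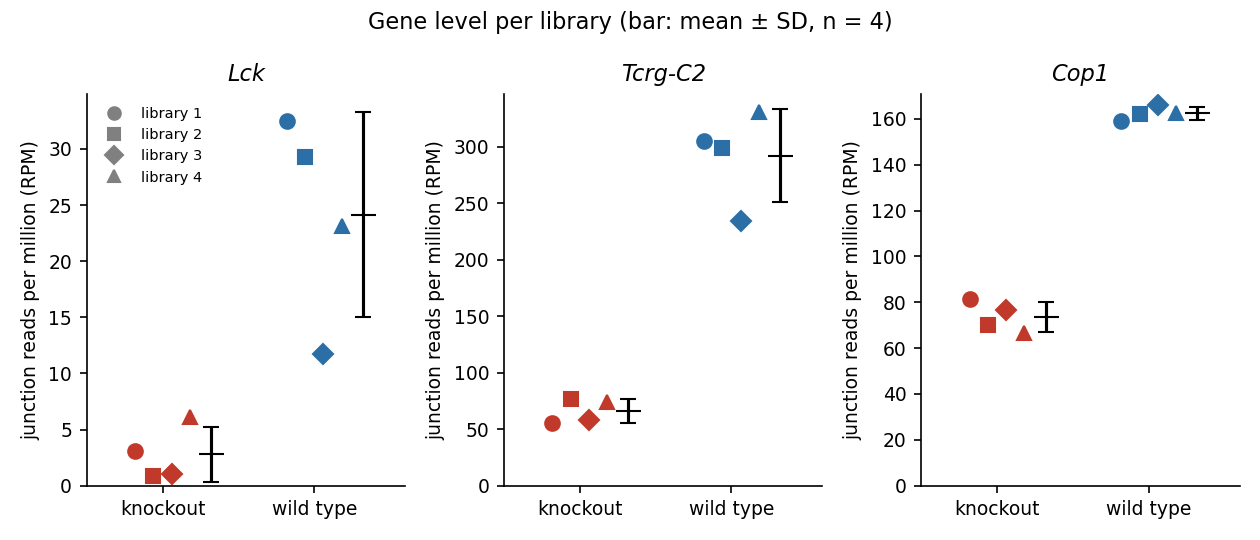
Junction reads per 1000000 (RPM, linear axis from 0) of Lck, Tcrg-C2 and Cop1 in 4 knockout libraries (left, red) and 4 wild-type libraries (right, blue), with the mean and SD of each group as a bar. Marker shape gives the library number. The groups do not overlap in any of the 3 panels, and Lck in knockout library 4 (6.14 RPM) is the highest of its group.

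Deviations from group means correlated most in same-numbered libraries (0.293 to 0.55, against at most 0.146 otherwise). A pairing by number was inferred from that, and each knockout library is set beside the wild-type library of the same number. Lck stood at 9.45%, 2.96%, 8.79% and 26.6% of its wild-type partner in pairs 1 to 4, so pair 4 differed least. Tcrg-C2 stood at 18.2%, 25.7%, 24.7% and 22.5%. Without both libraries numbered 4, Lck was at 6.76% of wild type and Tcrg-C2 at 22.7%. The level of Lck thus varied more between pairs than that of Tcrg-C2.

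Gene totals cannot be compared between genes with different numbers of junctions, so levels were also divided by the number of junctions. Tcrg-C2 averaged 33.1 ± 5.46 RPM per junction in knockout and 146 ± 20.6 RPM per junction in wild type. Lck averaged 0.214 ± 0.189 RPM per junction in knockout and 1.86 ± 0.703 RPM per junction in wild type (SD, n = 4 each). By this level Tcrg-C2 was at percentile 95.7 of all genes in knockout and 99.3 in wild type. Lck was at percentile 15.7 in knockout and 47.6 in wild type. The gamma constant gene was read 78.6 to 576 times as much as the kinase in knockout libraries and 61.0 to 129 times as much in wild-type libraries.

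The 13 junctions of Lck run from its first exons to its last, named by the pairs of numbered exon blocks that they join. In 12 of the 13, every knockout library was below every wild-type library, and over the whole table this held for 10.7% of junctions with a mean of at least 0.05 RPM. The mean knockout level was 3.63% to 22.1% of the wild-type mean across junctions, with a median of 10.3%. The lowest knockout mean was 0.0744 RPM at E6.1-E7.2, where wild type averaged 2.05 RPM. The highest mean in both groups was at E8.2-E9.2, with 0.601 RPM in knockout and 3.09 RPM in wild type. Reads there were 15, 2, 6 and 28 in knockout libraries 1 to 4, against 70, 79, 32 and 56 in wild-type libraries 1 to 4. Taken alone, this junction gave a difference of -1.37 in log2(RPM + 1). The 1 RPM added is more than its knockout mean, which shrinks that value, and the knockout mean was 19.4% of the wild-type mean.

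Exon blocks carry no coordinates in the table, so they were matched to annotated exons by their order. Lck-202, the transcript that begins at the distal start, has 13 exons, and the table has 13 blocks. Junction E1.1-E2.4 then joins the distal first exon (129573515 to 129573641, 127 nt) to the second exon of Lck-202 (129558081 to 129558190). It had 4, 2, 1 and 4 reads in knockout libraries 1 to 4, against 39, 32, 14 and 21 in wild-type libraries 1 to 4. Junction E2.2-E2.4 joins the first exon of Lck-206, at the proximal start, to that same exon. It had 0, 0, 0 and 2 reads in knockout libraries, against 5, 0, 1 and 2 in wild-type libraries, and it is the junction at which the groups overlap.

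Summed over libraries, the distal junction held 11 of 13 reads at these alternative junctions in knockout, or 84.6% (exact Clopper-Pearson 95% interval 54.6% to 98.1%). In wild type it held 106 of 114 reads, or 93.0% (86.6% to 96.9%). The intervals cover counting error only and they overlap, so a difference in the choice of start was not detectable at this depth. Without the libraries numbered 4 the distal junction held 7 of 7 reads in knockout and 93.4% in wild type. Transcripts that begin in the proximal region without a splice upstream of the coding exons, as annotated for Lck-201, leave no read at either junction. Reads at the 2 upstream junctions were 1.18 times those at the next junction, E2.5-E3.1, in knockout and 1.13 times in wild type.

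Reads were not spread evenly along Lck. The last 6 of the 12 junctions of the main chain held 2.15, 1.14, 1.86 and 5.48 times the reads of the first 6 in knockout libraries 1 to 4, against 1.65, 1.11, 1.38 and 1.66 times in wild-type libraries 1 to 4. Knockout library 2 lies within the wild-type range, libraries 1 and 3 lie above it and library 4 lies furthest above. Within same-numbered pairs the ratio was higher in knockout in 4 of 4, by little in pair 2. In library 4 the first 6 junctions held 21 reads and the last 6 held 115. The 12 junctions together held 63, 15, 20 and 136 reads in knockout libraries, against 677, 551, 221 and 410 in wild-type libraries. With 15 and 20 reads over the whole gene in knockout libraries 2 and 3, the profile of those libraries is not resolved.

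Tcrg-C2 lies on the minus strand of chromosome 13 at 19304649 to 19307551 (ENSMUSG00000076752) and has 3 exons of 330, 30 and 554 nt. Its 2 junctions, E4.1-E5.1 and E5.1-E6.1, were taken to join exon 1 to exon 2 and exon 2 to exon 3. The block numbers run past the 3 exons, so this match by order is less certain than that of Lck. Blocks of the other gamma constant genes were also matched by order. A read can span both Tcrg-C2 junctions across the 30 nt exon. No junction between a variable or joining segment and exon 1 of Tcrg-C2 was analysed here, so these reads do not tell a rearranged gamma chain from an unrearranged transcript. The first junction had 575, 675, 576 and 869 reads in knockout libraries 1 to 4, against 3330, 2861, 2267 and 3032 in wild-type libraries 1 to 4. The second had 565, 655, 545 and 799 in knockout libraries, against 3066, 2774, 2154 and 2854 in wild-type libraries. Both junctions were below wild type in every knockout library. The second held 0.955 ± 0.028 times the reads of the first in knockout and 0.945 ± 0.020 times in wild type (SD, n = 4 each). Reads that span both are counted at each, so the 2 counts are not independent and nothing is read from their steady ratio.

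Reads of Tcrg-C2 can be told from those of its sister genes only where the sequences differ. The first exons of Tcrg-C1 and Tcrg-C2 share 97.3% of 330 bases (9 differences), those of Tcrg-C2 and Tcrg-C3 share 96.7% (11 differences), and Tcrg-C2 and Tcrg-C4 share 81.5% (61 differences). The 60 bases around the spliced junctions, 30 on either side, are shown because they are what a junction read has to match. They are cut from Gencode M21 transcript sequences at the exon ends, 5′ to 3′ on the transcribed strand. In them, capitals mark bases that differ from Tcrg-C2 at the same position, compared without gaps. Around the junction of exons 1 and 2 the sequences read as follows.
Tcrg-C2: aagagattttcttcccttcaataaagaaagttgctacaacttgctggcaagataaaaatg
Tcrg-C1: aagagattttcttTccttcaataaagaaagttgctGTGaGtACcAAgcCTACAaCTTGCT
Tcrg-C3: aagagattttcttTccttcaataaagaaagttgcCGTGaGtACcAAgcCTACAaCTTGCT

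Around the last junction, the sequences read as follows.
Tcrg-C2: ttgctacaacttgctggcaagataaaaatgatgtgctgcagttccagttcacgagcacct
Tcrg-C1: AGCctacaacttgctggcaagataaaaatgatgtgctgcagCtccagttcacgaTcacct
Tcrg-C3: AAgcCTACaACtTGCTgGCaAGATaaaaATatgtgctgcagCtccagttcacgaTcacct
Tcrg-C4: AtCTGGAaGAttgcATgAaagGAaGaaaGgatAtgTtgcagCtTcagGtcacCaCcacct

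At the first junction Tcrg-C1 differs from Tcrg-C2 at 20 of these positions and Tcrg-C3 at 21. The longest runs shared with Tcrg-C2 there are 21 bases in Tcrg-C1 and 20 in Tcrg-C3. Exon 2 is 45 nt in Tcrg-C1, 44 nt in Tcrg-C3 and 30 nt in Tcrg-C2. Positions were compared without gaps, so bases shifted by inserted or missing sequence count as differences. At the last junction Tcrg-C1 differs at only 5, with a shared run of 38 bases, so reads there are the hardest to assign to Tcrg-C1 or Tcrg-C2. Tcrg-C3 and Tcrg-C4 each differ at 22 positions there, but the longest run shared with Tcrg-C2 is 26 bases in Tcrg-C3 and 5 in Tcrg-C4. The differences of Tcrg-C3 thus come largely from a shift in position, and reads there are also hard to assign between Tcrg-C3 and Tcrg-C2. Levels of Tcrg-C1, Tcrg-C2 and Tcrg-C3 are uncertain to the extent that the authors' alignment split such reads, which was not tested. At the first junction of Tcrg-C2 the knockout mean was 22.5% of the wild-type mean, and at the last it was 22.7%. Reads that span both junctions enter both values, so their likeness does not bear on how reads were assigned.

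Tcrg-C1, the gamma constant gene closest in sequence, had 48.7, 86.8, 72.2 and 465 RPM in knockout libraries 1 to 4, against 209, 224, 261 and 816 RPM in wild-type libraries 1 to 4. Both libraries numbered 4 were several times above the rest of their group, and the groups overlap. It was not called (log2 difference -1.52, SE 0.72, limma adjusted p = 0.169), and it was called with the replicate number as a block (adjusted p = 0.00565), without both libraries numbered 4 (0.00271) and without knockout library 4 alone (0.0138). Within the pairs it stood at 23.3%, 38.7%, 27.6% and 56.9% of wild type. Tcrg-C2 shows no such rise in the libraries numbered 4.

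Tcrg-C3 was called lower, although the groups overlap (7.43 RPM in knockout library 4 and 7.41 RPM in wild-type library 3). It averaged 3.36 ± 2.80 RPM in knockout and 10.2 ± 4.84 RPM in wild type (log2 difference -1.47, SE 0.44, adjusted p = 0.0466). That call was lost under TMM scaling (adjusted p = 0.0517), with 5 RPM added (0.0516), with no filter on low values (0.0532) and without any 1 library other than knockout library 4 (0.0684 to 0.114). Tcrg-C4 averaged 0.893 ± 0.724 RPM in knockout and 4.17 ± 2.89 RPM in wild type and was not called (-1.28, adjusted p = 0.124). It was called with the block (0.021) and without wild-type library 3 (0.02). The alpha constant gene Trac averaged 0.861 ± 0.659 RPM in knockout and 2.01 ± 1.01 RPM in wild type and was not called (-0.71, adjusted p = 0.162), and was called with the block (0.0356). Of 7 listed constant genes besides Tcrg-C2, 4 were tested, 1 was lower and 0 were higher, with a median log2 difference of -1.37 beside -0.07 over all genes tested. Over all genes tested 12.1% were lower and 8.49% higher. With the block all 4 constant genes were lower, where 15.7% of all genes tested were. The delta and beta constant genes were not analysed here.

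At the last junction, the one that the 4 gamma constant genes have in common, Tcrg-C2 held 52.4%, 46.5%, 44.1% and 13.5% of their summed reads in knockout libraries 1 to 4, against 57.7%, 56.7%, 47.1% and 28.3% in wild-type libraries 1 to 4. The mean share was 39.1 ± 17.4% in knockout and 47.5 ± 13.7% in wild type (SD, n = 4 each), and the groups overlap. Within same-numbered pairs the share of Tcrg-C2 was lower in knockout in 4 of 4. Tcrg-C1 held most of the rest, 44.7%, 51.2%, 54.6% and 84.4% in knockout libraries, against 40.1%, 41.1%, 50.8% and 69.4% in wild-type libraries. The share of Tcrg-C1 was higher in knockout in 4 of 4 pairs. All these shares rest on the junction where reads are hardest to assign to Tcrg-C1 or Tcrg-C2, and shares at the first junction were not computed. Tcrg-C3 stayed between 1.29% and 2.69% in every library. The share of Tcrg-C1 was thus highest in the library numbered 4 of each group. Summed over the 4 genes, this junction had 52.6, 81.2, 63.9 and 264 RPM in knockout libraries, against 253, 260, 242 and 567 RPM in wild-type libraries.

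**Figure D2:**
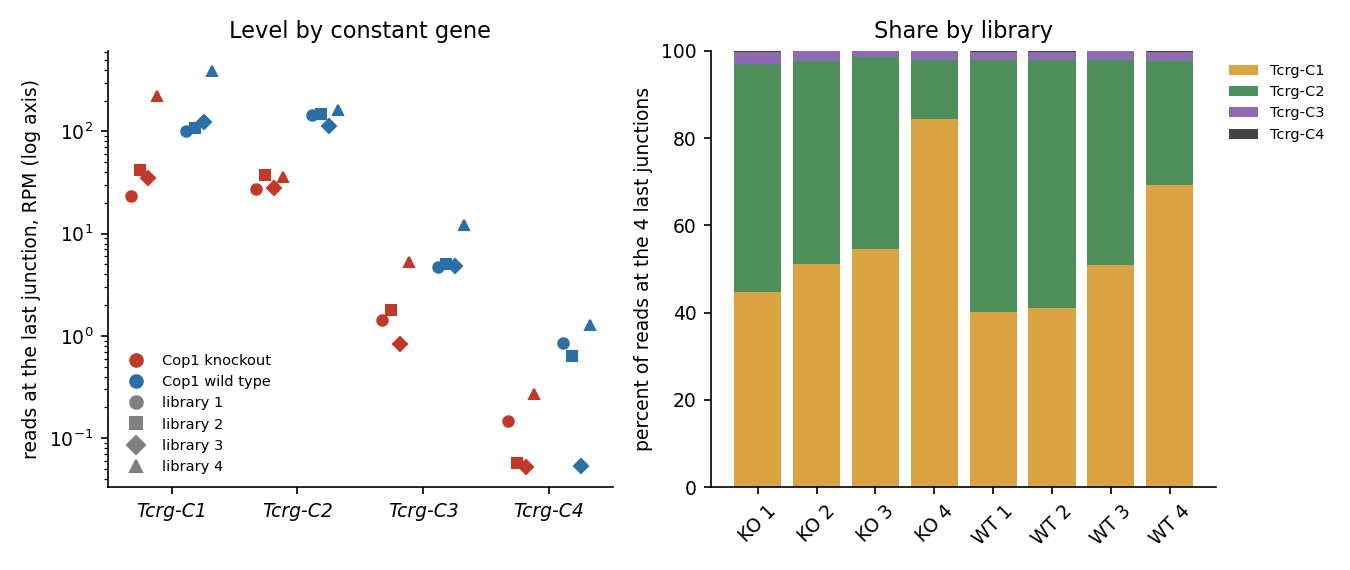
Left, reads per 1000000 (RPM) at the last junction of each gamma constant gene (log axis), with knockout libraries (red) left of wild-type libraries (blue) and marker shapes for library numbers. Right, the share of each gene in the summed reads of these 4 junctions, in percent, by library. Tcrg-C1 holds 84.4% in knockout library 4 and 69.4% in wild-type library 4, and 40.1% to 54.6% in the others.

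T-cell markers were read at low levels, Thy1 apart, in both groups. Of 11 markers 4 were in the table, and the other 7, the coreceptor genes Cd4 and Cd8a among them, were not analysed here. Cd3g, a CD3 chain, averaged 3.04 ± 2.28 RPM in knockout and 2.98 ± 2.51 RPM in wild type (adjusted p = 0.998), and was at 0 in knockout library 4. Cd3d averaged 0.341 ± 0.202 RPM in knockout and 0.392 ± 0.280 RPM in wild type and was too low to test. Thy1, a surface protein of T cells and of other cells, averaged 238 ± 41.2 RPM in knockout and 190 ± 30.02 RPM in wild type (adjusted p = 0.156, 0.0283 with the block and 0.0327 without the libraries numbered 4). The costimulatory receptor Cd28 was called higher, as given with the signalling genes. The 4 markers summed to 215 to 298 RPM in knockout and 172 to 234 RPM in wild type, and without Thy1 to 1.02 to 12.9 RPM in knockout and 0.618 to 6.67 RPM in wild type. Of 9 markers of natural killer and innate lymphoid cells, 7 were in the table and summed to 24.9 to 87.2 RPM in knockout and 74.8 to 129 RPM in wild type, with none of the 3 tested called. Most of that sum was Nkg7, at 51.1 ± 20.7 RPM in knockout and 85.4 ± 21.7 RPM in wild type (adjusted p = 0.126). Of 9 B-cell markers, 2 were in the table and summed to 0.878 to 2.83 RPM in knockout and 0.952 to 3.38 RPM in wild type. Their part in the levels of Lck and Tcrg-C2 was not tested.

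Markers of myeloid cells were read in the same libraries. Of 7 neutrophil markers 6 were higher in knockout and 0 lower, where 8.49% of all genes tested were higher and 12.1% lower. Macrophage markers summed to 356 to 1284 RPM in knockout and 85.5 to 674 RPM in wild type, with 0 of 3 tested called. Erythroid markers summed to 71.5 to 547 RPM in knockout and 351 to 564 RPM in wild type, with 1 of 3 tested lower. Mast cell and basophil markers summed to 11650 to 16810 RPM in knockout and 11970 to 13920 RPM in wild type, with 3 of 6 higher. Most of that sum was Cpa3, which was not called (adjusted p = 0.692), and the 3 higher genes were Mcpt8, Ms4a2 and Prss34. Markers of myeloid progenitors summed to 2434 to 3933 RPM in knockout and 1263 to 3163 RPM in wild type, with 1 of 7 lower and 1 higher. Their part in the levels of Lck and Tcrg-C2 was not tested either.

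Lck belongs to a family of kinases with shared structure. Of 7 other Src family kinases, 4 were tested, 0 were lower and 1 was higher, with a median log2 difference of 0.695. Here and in the lists below, the shares over all genes tested are 12.1% lower and 8.49% higher. Lyn, a kinase that mast cells and other myeloid cells use for receptor signalling, averaged 111 ± 10.6 RPM in knockout and 89.5 ± 4.54 RPM in wild type (0.30, SE 0.09, adjusted p = 0.0487). That call was lost with the block (adjusted p = 0.071), with no filter (0.0595) and without any 1 library other than knockout library 4 (0.0797 to 0.118). Src itself had a log2 difference of 1.44 (adjusted p = 0.0834, 0.00311 with the block and 0.00329 without the libraries numbered 4). Fyn, the other Src kinase of T cells, had 0.44 (adjusted p = 0.141). The myeloid kinase Fgr had 0.95 (adjusted p = 0.388, and 0.00755 without the libraries numbered 4).

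Among 18 regulators of Lck and its kin, 4 were lower and 1 was higher, with a median of -0.04. Sla2, an adaptor that damps receptor signalling, averaged 8.66 ± 3.096 RPM in knockout and 30.02 ± 10.5 RPM in wild type (-1.68, SE 0.36, adjusted p = 0.0148), a call kept under each of the 16 alternatives. Ptprc, the CD45 phosphatase that activates Lck, averaged 758 ± 161 RPM in knockout and 473 ± 63.6 RPM in wild type (0.66, adjusted p = 0.0317), a call lost without any 1 library other than knockout library 4 (0.0557 to 0.087). Ptpn6, the phosphatase SHP-1, had -0.37 (adjusted p = 0.0305, and 0.106 under TMM scaling). Ubash3a, which restrains receptor signalling, had -0.51 (0.0353, and 0.0714 under TMM scaling), and Cdc37, a cochaperone of kinases, had -0.31 (0.0459, and 0.0898 under TMM scaling). Calls were also lost without any 1 of 5 libraries for Ptpn6 (0.0707 to 0.0812), of 6 for Ubash3a (0.0636 to 0.0889) and of 7 for Cdc37 (0.0734 to 0.113). Csk, the kinase that holds Lck in check, was not called.

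Of 31 genes of T-cell receptor signalling, 26 were in the table and 23 tested, with 1 lower, 2 higher and a median of 0.00. Rasgrp1, which activates Ras downstream of antigen receptors and in mast cells, averaged 19.1 ± 2.71 RPM in knockout and 79.4 ± 20.5 RPM in wild type (-1.97, SE 0.20, adjusted p = 0.00124). Nfatc2, a calcium-dependent transcription factor, averaged 19.4 ± 1.09 RPM in knockout and 11.1 ± 1.85 RPM in wild type (0.77, adjusted p = 0.00792). Cd28 averaged 5.22 ± 3.44 RPM in knockout and 0.369 ± 0.279 RPM in wild type (1.96, SE 0.50, adjusted p = 0.0282), a call lost without any 1 of 6 libraries (0.0581 to 0.0758). The block gave 4 lower and 3 higher, in a fit that called 15.7% of all genes lower and 12.3% higher. Leaving out the libraries numbered 4 gave 3 lower and 3 higher, in a fit that called 14.1% of all genes lower and 11% higher. A few further genes were picked after their values were seen. Zap70, the kinase that Lck activates, was near 0, at 0, 0, 0.103 and 0 RPM in knockout libraries 1 to 4, against 0.429, 0.319, 0.106 and 0.505 RPM in wild-type libraries 1 to 4, and was not tested. Its relative Syk averaged 126 ± 31.9 RPM in knockout and 119 ± 18.5 RPM in wild type (adjusted p = 0.862). The adaptor Lat averaged 187 ± 102 RPM in knockout and 265 ± 50.8 RPM in wild type (adjusted p = 0.202).

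Among 23 transcription factors of the T lineage and genes of receptor recombination, 16 were in the table and 12 tested, with 2 lower, 0 higher and a median of -0.32. Tox, a nuclear factor of T-cell development, averaged 18.3 ± 5.18 RPM in knockout and 60.6 ± 18.8 RPM in wild type (-1.65, SE 0.26, adjusted p = 0.00537). Zbtb16, the factor PLZF of innate-like lymphocytes, had -0.66 (adjusted p = 0.0396), a call lost under TMM scaling (0.0658) and without any 1 of 6 libraries, all but wild-type libraries 3 and 4 (0.0532 to 0.101). The block, which called 15.7% of all genes lower and 12.3% higher, gave 4 lower and 2 higher. Tcf7, the T-cell factor TCF-1, also picked after its values were seen, averaged 9.47 ± 5.25 RPM in knockout and 33.5 ± 27.3 RPM in wild type and was not called (adjusted p = 0.156).

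Of 16 genes of the IL-7 receptor and STAT5 axis, which includes the receptor chains for the IL-3 in the medium, 3 were lower and 5 higher, with a median of -0.07. Stat5a, one of the STAT5 genes, averaged 82.8 ± 12.7 RPM in knockout and 166 ± 21.7 RPM in wild type (-0.996, SE 0.14, adjusted p = 0.00387). Il7r, the IL-7 receptor chain, averaged 5.82 ± 3.02 RPM in knockout and 1.07 ± 0.54 RPM in wild type (1.65, adjusted p = 0.0184, and 0.0527 without knockout library 2). Csf2rb, the shared signalling chain of the IL-3 receptor, averaged 2495 ± 242 RPM in knockout and 1171 ± 182 RPM in wild type (1.099). Il3ra had 0.87, Csf2rb2 had 0.68 and the feedback inhibitor Cish had 0.81, all of them called, and the Csf2rb2 call was lost without knockout library 3 (adjusted p = 0.0502). The other 2 lower genes, which the rule for naming left out, were the kinases Jak1 (-0.47, adjusted p = 0.022) and Pim1 (-0.41, adjusted p = 0.0186). The Jak1 call was kept without knockout library 4 or wild-type library 3 and lost without each other library (0.0518 to 0.064). The Pim1 call was lost without knockout library 2, wild-type library 1 or wild-type library 2 (0.0524 to 0.0541). Genes of this axis thus went both ways.

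**Figure D3:**
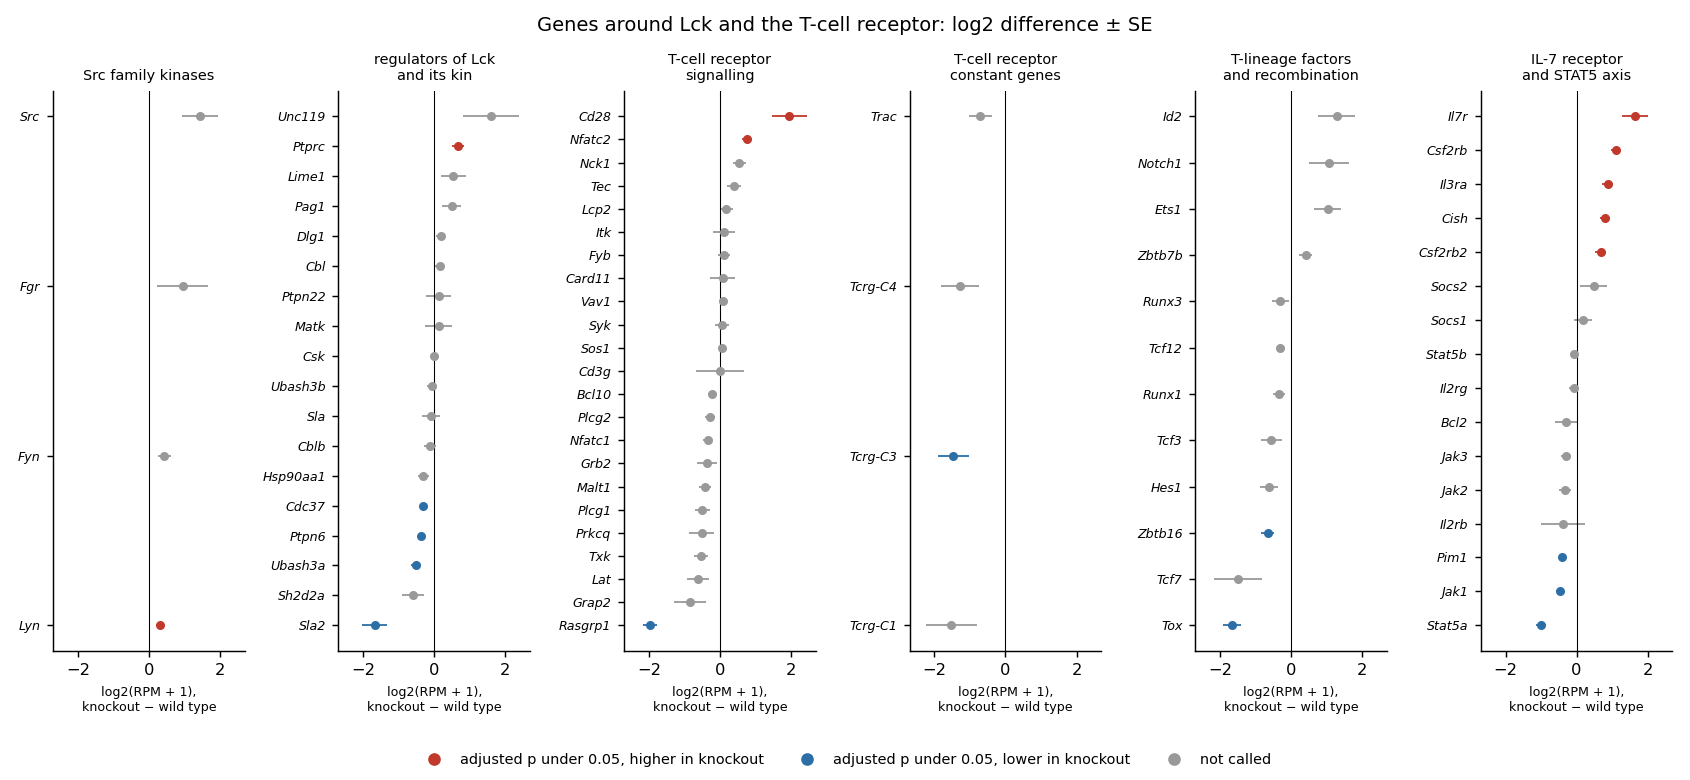
Difference of mean log2(RPM + 1), knockout minus wild type, with its SE, for the tested genes of 6 lists, in panels. Red marks genes called higher in knockout, blue genes called lower and grey genes not called (limma, adjusted p under 0.05). All 4 receptor constant genes lie below 0 and 1 of them is called, while the 4 Src family kinases shown lie above 0 and 1 of them is called.

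Genes beside Lck on the chromosome were set against it. Within 100 kb lie 16 annotated genes, of which 10 were tested, with 2 lower, 0 higher and 8 not called. Over all genes tested 12.1% were lower and 8.49% higher. Hdac1, the nearest tested gene at 5631 bp, encodes a histone deacetylase and had a difference of 0.05 (adjusted p = 0.833). Txlna averaged 98.2 ± 12.01 RPM in knockout and 148 ± 11.3 RPM in wild type (-0.59, SE 0.10, adjusted p = 0.00772). Kpna6, an importin, had -0.44 (adjusted p = 0.0494), a call lost under TMM scaling (0.0801), with no filter (0.0585), without junctions that had a dropped value (0.0696) and without any 1 library other than knockout library 4 (0.0594 to 0.118). Bsdc1 had 0.28 (adjusted p = 0.0812, 0.0429 under TMM scaling and 0.0388 without such junctions). Each of these differences is smaller than the -2.87 of Lck, which was chosen for its difference, so nothing is read from the comparison. Beside Tcrg-C2, 4 of 12 genes within 100 kb were tested. They are the 3 other gamma constant genes, given above, and Stard3nl, a membrane protein of late endosomes, which was not called (0.38, adjusted p = 0.0806).

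**Figure D4:**
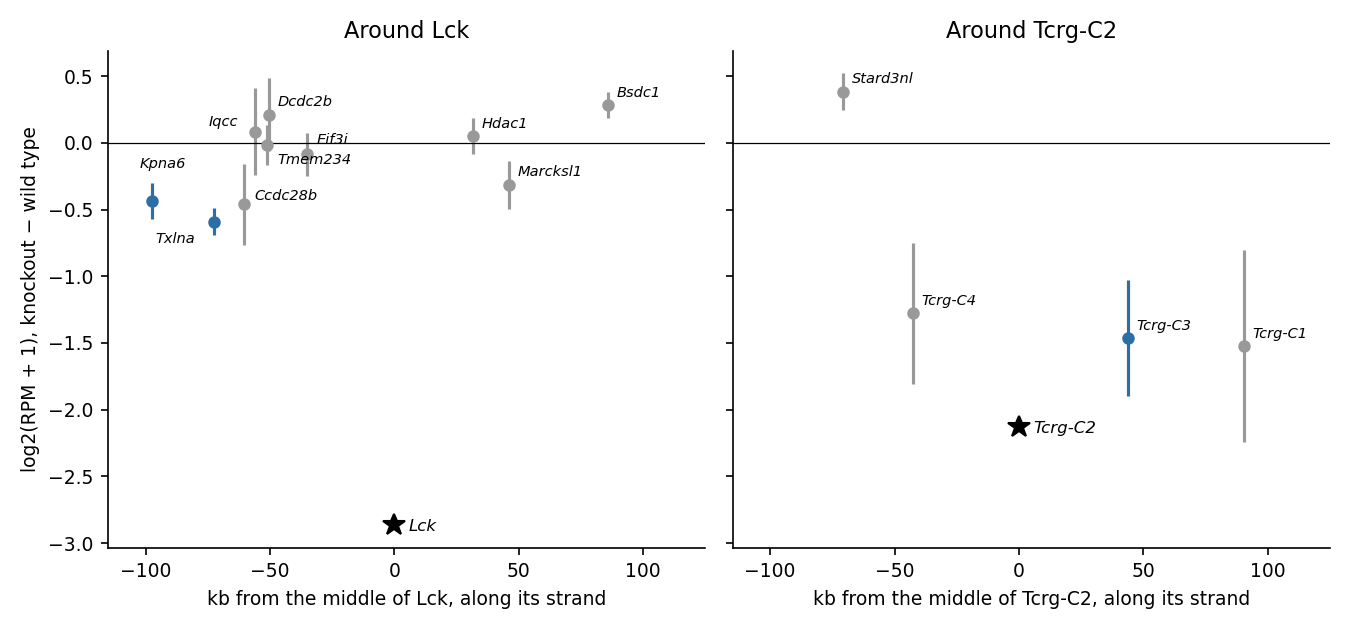
Difference of mean log2(RPM + 1), knockout minus wild type, with SE, of tested genes within 100 kb of Lck (left) and Tcrg-C2 (right), by distance in kb between gene middles along the strand of the named gene. Stars mark Lck (-2.87) and Tcrg-C2 (-2.13), drawn without SE, blue marks genes called lower and grey genes not called. Genes around Lck lie between -0.59 and 0.28, and the gamma constant genes around Tcrg-C2 lie between -1.52 and -1.28.

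The genes most like each member across the 8 libraries were found by the root-mean-square difference of log2(RPM + 1) after centring, among 7827 genes that averaged 10 RPM or more. Nearest to Lck was Fgf3, a fibroblast growth factor, with a distance of 0.34 log2 units. It had 4.78, 2.54, 2.17 and 5.96 RPM in knockout libraries 1 to 4, against 44.9, 44.9, 11.4 and 42.8 RPM in wild-type libraries 1 to 4. Wild-type library 3 was the lowest of its group for Fgf3 as for Lck. Col9a3, Parvb, Spns2 and Pdgfrb followed, at 0.67 to 0.70, and Tcrg-C2 was at rank 10 with 0.73. Nearest to Tcrg-C2 were Krba1 at 0.20, Rasgrp1 at 0.24, Bcl9l at 0.28, the mast cell adaptor Clnk at 0.30 and the cholesterol exporter Abca1 at 0.32. Lck was at rank 248 from Tcrg-C2. These distances share libraries and depth. They also include the knockout against wild-type difference for which both members were chosen, so they are given as a description only.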

How the data were processed

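RNA of FT1CL cells was sequenced in 8 strand-specific libraries made from 2 µg of total RNA, per the labels' protocols. Trimmomatic 0.39 and kallisto were used with build mm10, per the submitters' processing notes. The aligner used was not given in the sources used here, nor was the annotation release. The authors deposited 1 normalised signal value per junction and library, scaled to library total and length. Tested on the values, each is the junction's reads plus 1 over the library total and 60 nt. Whole reads came back within 0.001 of a read, and the authors' filters are not given.

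Reads were summed per gene, scaled to RPM, and fitted in R 4.3.3 with limma 3.58.1 (robust, with a trend) on log2(RPM + 1), keeping genes that averaged 1 RPM or more. Benjamini-Hochberg adjustment ran over 11003 genes at 0.05. All adjusted p-values are limma's. The fit was tested on simulated data. A read that crosses more than 1 junction is counted at each. Intronless genes were not analysed here. Symbols were found for 13247 of 13378 genes. Positions are from Gencode M21 on GRCm38, the same build as mm10. Of the members, Lck had promoter entries.

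Lck, Tcrg-C2 and the gene lists were chosen with earlier results of these data known. Named list genes are the called members of each list with the lowest adjusted p, at most 6, plus every Src kinase (1 is not reported here), T-cell marker and receptor constant gene in the table, tested neighbours within 100 kb and the 5 most alike genes.

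The replicate numbers paired the libraries, as inferred from these data. Deviations from group means correlated at 0.316, 0.293, 0.356 and 0.55 in same-numbered pairs, against at most 0.146 otherwise. TMM factors were computed from the recovered gene reads, without edgeR. The reported fit has no block, and a fit with it stands beside the results it changes. Libraries of a group differed beyond sampling noise (lowest chi-square over its degrees of freedom 29.4). Of the junction values, 18007 in 2953 genes were dropped, meaning at most 6 reads where the rest of the gene predicted at least 100, and none was in Lck or Tcrg-C2. They stay in the sums, and sums without those junctions are an alternative. Giving the junctions of Lck without the libraries numbered 4, and following named genes through the alternatives one by one, were chosen after seeing the data.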

Additional observations from a re-analysis of the deposited data

Results flagged for a closer look

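In groups of 4 libraries, a library was picked out when its gap to the nearest of the others was too large a part of the group's whole range on the log2 scale by Dixon's test at 95%. This happened in 10 of 100 groups of 50 genes, or 10%, where chance gives about 1 in 20, and 3 of the 10 are libraries numbered 4. Neither Lck nor Tcrg-C2 was among them.

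Wild-type library 4 was high for 2 gamma constant genes, with 816 RPM of Tcrg-C1 (209 to 261 RPM elsewhere in wild type) and 17.4 RPM of Tcrg-C3 (7.41 to 8.12 RPM). It was low for Ptprc, with 379 RPM (495 to 520 RPM). Wild-type library 3 was low for Fgf3, with 11.4 RPM (42.8 to 44.9 RPM), and for Abca1, with 44.8 RPM (90.5 to 101 RPM). Of the genes named as most alike to Lck or Tcrg-C2, Parvb, Spns2 and Pdgfrb were not lowest in that library within wild type. The rest were. Knockout library 3 was low for Sla2, with 4.08 RPM (9.69 to 10.9 RPM elsewhere in knockout), and for Rasgrp1, with 15.1 RPM (20.2 to 20.7 RPM). Wild-type library 1 was high for Nfatc2, with 13.8 RPM (9.87 to 10.3 RPM), and for Marcksl1, with 11 RPM (6.72 to 7.22 RPM). Knockout library 1 was high for Col9a3, with 62.9 RPM (28.2 to 31.2 RPM). The source of these values was not tested.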

How the results depend on the processing

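The log2 difference of Tcrg-C2 ran from -2.23 to -2.05 over all alternatives. That of Lck, -2.87 as reported, was -1.89 with 5 RPM added and -1.37 from its most-read junction alone, and otherwise ran from -3.25 to -2.60. For that junction the 1 RPM added is more than the knockout mean of 0.601 RPM, which shrinks the difference. Leaving out 1 library moved the number of genes called, 2264 as reported, to between 1215 and 2991, those lower (1330) to between 706 and 1742 and those higher (934) to between 509 and 1249. Over all genes tested 12.1% were lower and 8.49% higher. Over the 6 lists, with 4, 18, 23, 4, 12 and 16 genes tested, 11 genes were lower and 9 higher. Lower calls were 6 under TMM scaling, 17 without both libraries numbered 4 and 4 to 15 without 1 library. Higher calls were 14 without both libraries numbered 4 and 5 to 13 without 1 library. The cause was not tested. Of 47 named genes that were tested, 30 were called, 19 of them under every alternative that could test them, and no named gene changed direction together with its call.

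The replicate numbers pair the libraries, as inferred from these data. Of all genes tested, the fit with the replicate block called 15.7% lower and 12.3% higher. That fit called 3084 genes, among them 19 list genes lower and 12 higher. It added calls for 5 named genes and ended that of Lyn, and it changed no other named call.

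With 15 to 138 reads of Lck in a knockout library, shifts along the gene and between its starts below a few reads were not detectable. Count models (edgeR, DESeq2) were planned for recovered reads and were not run. The recovered values were whole in all 8 libraries, but a separate check of the deposited columns, made before any count test, did not accept 2 of the 8.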
